A study of Mus musculus with 2 samples.

Results

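The 4 genes described here act around glutamate in the liver, and they were followed across cell types in liver cells of a GS-KO and a control mouse: Glul, Slc1a2, Oat and Rhbg. Each was taken by its symbol, and each symbol matched 1 of the 32285 genes counted in both libraries. Both mice carried tumours and floxed Glul alleles (Glul f/f), and the series title names β-catenin-mutant hepatocellular carcinoma. The GS-KO mouse had received AAV8-Cre and the control mouse AAV8-GFP 7 weeks earlier; AAV8 is a viral vector that reaches mainly hepatocytes. Cells left in the supernatant after a first spin of collagenase-perfused liver were enriched for F4/80, a macrophage surface protein, and cleared of dead cells, so hepatocytes in these libraries are those that came through that selection. Each group is 1 mouse and 1 library, so no test between the groups exists. The 95% intervals of levels and ratios cover counting error only. Those of shares of cells, and of differences of shares, treat the cells of 1 library as independent draws. No interval covers the spread between mice. The age of the mice, how the tumours were made and which part of Glul is floxed are not given in the sources used here.

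Glutamine is made from glutamate and ammonia by glutamine synthetase (GS), the product of Glul, in a narrow ring of hepatocytes around the central vein. Slc1a2 encodes a plasma membrane glutamate transporter, Oat encodes ornithine aminotransferase, a mitochondrial enzyme that turns ornithine into a precursor of glutamate, and Rhbg encodes an ammonium transporter. All are known as pericentral genes of mouse liver, and the pericentral programme is driven by Wnt and β-catenin signalling. The opposite, periportal zone holds the urea cycle and glutaminase.

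The GS-KO library held 1366 barcodes and 8805330 UMIs, against 5074 barcodes and 64770011 UMIs in the control library; a UMI is a molecular tag that lets copies of 1 transcript count once. Barcodes that passed the filter (500 UMIs or more, 200 genes or more, no more than 20% mitochondrial UMIs) numbered 662 in the GS-KO library and 3275 in the control library. After 6 and 9 called doublets were taken out, 656 GS-KO and 3266 control cells remained, with medians of 4104.5 and 7330 UMIs. The libraries shared 1 barcode, and 0 among these cells.

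Hepatocyte-like cells were clusters 13 and 9, with 19 GS-KO cells and 453 control cells. All 12 hepatocyte markers were detected in both libraries, and they summed to 41779 CPM in the GS-KO cells and 33584 CPM in the control cells (CPM, UMIs of a gene per 1000000 UMIs of the pooled cells). Cluster 13, led by Fabp1, Cyp2a5 and Cyp1a2, held 12 GS-KO and 385 control cells with median depths of 10146 and 54525 UMIs. Cluster 9, led by Hamp and Mup3, held 7 GS-KO and 68 control cells with medians of 3765 and 3126 UMIs. Markers of dividing cells summed to 89.1 CPM in GS-KO and 431 CPM in control hepatocyte-like cells (6 of 6 detected in both), Kupffer cell markers to 182 and 318 CPM (4 and 10 of 10 detected), endothelial markers to 13.2 and 8.98 CPM (4 and 9 of 10) and B cell markers to 0 and 13.4 CPM (0 and 8 of 8); their part in the values below was not tested. The shares of cluster 9 in the class thus differ between the libraries, and the class may hold hepatocytes of tumours and of the liver around them, which were not separated. Cluster 12, with 47 GS-KO and 217 control cells, carried hepatocyte RNA too, but it was shallow (medians 1969 and 1740 UMIs) and none of its 10 leading genes was a hepatocyte marker, so it has no cell type name and is described by its number. Its depth is close between the libraries, unlike that of cluster 13.

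The GS-KO hepatocyte-like cells were few and uneven in depth. Of the 19, 2 cells with 78042 and 82324 UMIs held 52.9% of their UMIs, while none of the other 17 cells passed 24152 UMIs. Values are therefore also given without those 2 cells, a choice made after they were seen. They are also the only GS-KO hepatocyte-like cells deeper than the control median of cluster 13, 54525 UMIs. Values of cluster 13 without them thus set shallower GS-KO cells against mostly deeper control cells. The part of depth in these values was not tested.

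Glul, the targeted gene (ENSMUSG00000026473), lies on the plus strand at chr1:153899944-153909723 (GRCm38). In the GS-KO hepatocyte-like cells it had 11 UMIs, 36.3 CPM (18.1 to 65.0), against 72129 UMIs, 3027 CPM (3005 to 3049), in the control cells, 83.4-fold lower in the GS-KO library (46.6- to 167-fold). Because these are 3′ counts and the floxed part is not known, a remaining UMI does not show that a cell kept an intact gene. Without the 2 deepest GS-KO cells Glul was at 63.1 CPM, 48.0-fold lower (25.3- to 105-fold). The direction is thus the same in the other 17 cells.

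Cell by cell, the GS-KO values of Glul were low throughout. In the 12 GS-KO cells of cluster 13, ordered from 3567 to 82324 UMIs, the Glul counts were 0, 0, 2, 0, 4, 1, 1, 0, 1, 0, 1 and 1, and all 7 GS-KO cells of cluster 9 had 0. Among the 453 control cells, 48 had 0 and 338 had 10 or more, with 1149 in the highest. Per 10000 UMIs of a cell, the median in cluster 13 was 0.125 in GS-KO cells and 26.8 in control cells, and the highest values were 5.75 and 156. The GS-KO and control cells of cluster 13 overlap only at the low end: all 12 GS-KO cells lay below 10 per 10000, where control cells numbered 5 at 0, 20 up to 2, 28 from 2 to 5 and 43 from 5 to 10, of 385. Thinned to 1000 UMIs per cell, Glul was seen in 5.56% of 18 GS-KO cells (0.141 to 27.3%) and 70.6% of 439 control cells (66.1 to 74.8%); without thinning the shares were 36.8% and 89.4%. No class of cells lacked Glul UMIs, so no level for absent Glul can be given; the lowest thinned shares were 2.52% in GS-KO B-like cells and 5.92% in control T and NK-like cells, at median depths of 3867 and 5620 UMIs.

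In cluster 9, Glul had 0 UMIs in the GS-KO cells and 98 UMIs, 122 CPM, in the control cells, at least 2.23-fold lower with the GS-KO count set to 3. In cluster 12 it stood at 271 CPM (201 to 357) in GS-KO cells and 3025 CPM (2911 to 3143) in control cells, 11.2-fold lower (8.45- to 15.1-fold). The control level of cluster 12 thus lies next to that of control hepatocyte-like cells, while its GS-KO level lies above that of GS-KO hepatocyte-like cells. Macrophage markers summed to 975 CPM in GS-KO cells and 2319 CPM in control cells of cluster 12 (9 and 11 of 11 detected), against 19.8 and 186 CPM in hepatocyte-like cells (3 and 11 of 11 detected). In cluster 12 Kupffer cell markers summed to 504 and 928 CPM (9 and 10 of 10 detected) and endothelial markers, in the other direction, to 184 and 66.8 CPM (9 and 8 of 10 detected). Their part in these Glul values was not tested.

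**Figure D1:**
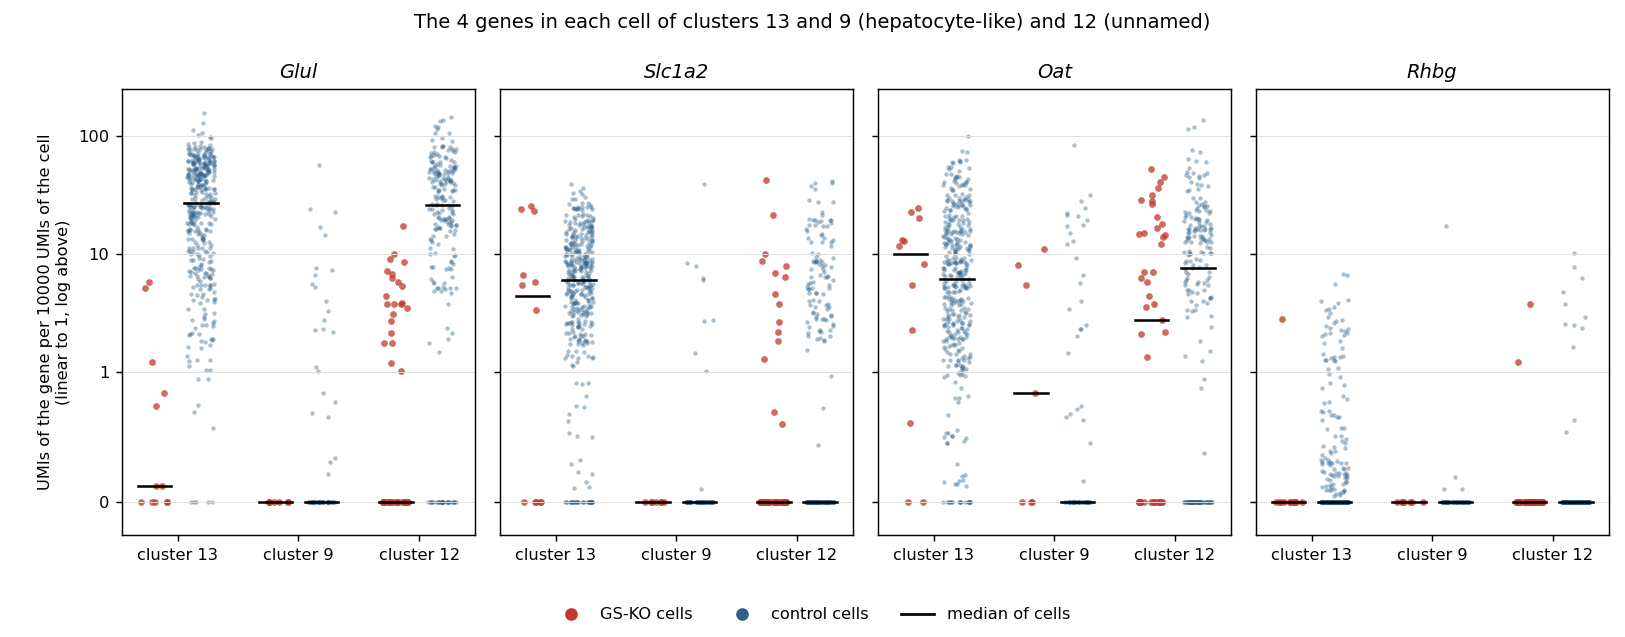
UMIs of each gene per 10000 UMIs of the cell (vertical axis, linear to 1 and logarithmic above) for every cell of clusters 13, 9 and 12, with GS-KO cells left of control cells and black lines at the medians. For Glul in cluster 13 the highest of the 12 GS-KO cells is at 5.75 and the control median at 26.8, while the Slc1a2 and Oat values of GS-KO and control cells cover much of the same range.

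Slc1a2 (ENSMUSG00000005089, plus strand, chr2:102658659-102790784), the glutamate transporter, was lower in the pooled GS-KO cells, but by an amount that 2 cells set. It had 57 UMIs, 188 CPM (142 to 244), in GS-KO hepatocyte-like cells and 17816 UMIs, 748 CPM (737 to 759), in control cells, 3.97-fold lower (3.07- to 5.25-fold). Neither of the 2 deepest GS-KO cells had a UMI of it. Without them it was at 400 CPM, 1.87-fold lower (1.44- to 2.47-fold), which is under the 2-fold used for a call. In the same order of cells as above, the counts in cluster 13 were 9, 2, 9, 0, 4, 20, 4, 0, 9, 0, 0 and 0, and 1 cell held 35.1% of the total. Their median was 4.40 per 10000 UMIs, against 6.03 in control cells of cluster 13, and the highest were 25.2 and 38.8. The GS-KO cells of that cluster are thus spread over most of the control range, with 5 of 12 at 0, against 33 of 385 control cells at 0. Without the 2 deepest cells the GS-KO level in cluster 13 was 651 CPM (493 to 844), against 772 CPM (761 to 784) in control cells, a ratio of 0.843 (0.638 to 1.09). In cluster 9 Slc1a2 had 0 UMIs in GS-KO cells and 31 UMIs, 38.5 CPM, in control cells. In cluster 12 it was at 173 CPM (119 to 245) in GS-KO cells and 367 CPM (328 to 410) in control cells, 2.12-fold lower (1.47- to 3.15-fold).

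Oat (ENSMUSG00000030934, minus strand, chr7:132557478-132576398), the ornithine aminotransferase gene, showed the same dependence. It had 122 UMIs, 403 CPM (334 to 481), in GS-KO hepatocyte-like cells and 23504 UMIs, 986 CPM (974 to 999), in control cells, 2.45-fold lower (2.05- to 2.95-fold). Without the 2 deepest GS-KO cells, which held 5 of the 122 UMIs, it was at 820 CPM, 1.20-fold lower (1.00- to 1.45-fold). The counts in the GS-KO cells of cluster 13 were 8, 3, 5, 1, 17, 11, 24, 7, 16, 0, 0 and 5. Their median of 9.98 per 10000 UMIs lies above the 6.15 of control cells of the cluster, although the pooled level is lower; the highest values were 24.4 and 100. In cluster 9 the 7 GS-KO cells had 0, 0, 2, 0, 9, 1 and 13 UMIs of Oat, 454 CPM (294 to 670), against 374 CPM (333 to 418) in control cells. In cluster 12 Oat was at 1100 CPM (954 to 1262) in GS-KO cells and 1095 CPM (1026 to 1167) in control cells, a ratio of 1.00 (0.859 to 1.17). In cluster 13 the pooled level was 391 CPM in GS-KO cells and 1008 CPM in control cells, 2.58-fold lower (2.11- to 3.18-fold), but both of the deepest GS-KO cells are in that cluster. Without them Oat was at 1051 CPM (847 to 1289) in the GS-KO cells of cluster 13, a ratio of 1.04 (0.841 to 1.28). Within hepatocyte-like cells, an Oat level at least 2-fold lower in the GS-KO library thus rests on those 2 cells. No lower level of Oat was found in clusters 9 or 12. Outside these clusters Oat was lower in GS-KO endothelial-like and monocyte-like cells and in barcodes over the mitochondrial limit, as given below.

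Rhbg (ENSMUSG00000104445, minus strand, chr3:88242874-88254709), the ammonium transporter, was too sparse to compare. It had 1 UMI, 3.30 CPM (0.0836 to 18.4), in GS-KO hepatocyte-like cells and 605 UMIs, 25.4 CPM (23.4 to 27.5), in control cells, a ratio of 0.130 (0.00329 to 0.727). The 1 UMI came from the shallowest GS-KO cell of cluster 13. In control cells it was found in 125 of 453, with 30 UMIs in the highest. In cluster 12 the counts were 3 and 12 UMIs, 16.3 and 13.8 CPM, a ratio of 1.18 (0.213 to 4.36). The direction in cluster 12 is thus not that of the pooled class, and neither is precise.

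Counted by a pooled level at least 2-fold lower in GS-KO hepatocyte-like cells, 4 of the 4 genes passed, where 9.33% of the 11390 genes with 20 or more UMIs did. Without the 2 deepest GS-KO cells 2 of 4 passed, Glul and Rhbg, against 7.01% of 11381 genes, with Rhbg on 1 GS-KO UMI. These shares over all genes are held down by depth. In the GS-KO cells 2099 of the 11390 genes had 0 UMIs, and 3573 of the 11381 without the 2 deepest cells. Such genes were bounded with 3 counts, so those sparse in control cells could not pass. In cluster 12, 2 of the 3 genes with 20 or more UMIs passed, Glul and Slc1a2, against 15.2% of 4859 genes. In cluster 13 alone 4 of 4 passed, against 9.02%, but without the 2 deepest cells 2 of 4, Glul and Rhbg, against 5.27%, with Glul at 103 CPM and 30.4-fold lower. With cluster 12 added to the class 3 of 4 did, against 10.2% (9.47% of genes were higher there). Among genes with 1000 or more UMIs, which leaves out Rhbg, 3 of 3 passed, against 7.56%, while 3.31% were higher. Of the 4 genes, only Glul passed in each of these 7 counts with an interval that lies wholly under the 2-fold mark.

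Across the other cell classes, the pooled levels of Glul in the control library ran from 3027 CPM in hepatocyte-like cells to 262 CPM (224 to 306) in endothelial-like, 253 CPM (247 to 260) in macrophage-like, 143 CPM in neutrophil-like, 124 CPM in monocyte-like, 67.0 CPM in B-like and 52.3 CPM in T and NK-like cells. Endothelial-like and macrophage-like cells were within counting error of each other, as were neutrophil-like and monocyte-like cells, and B-like and T and NK-like cells. In the GS-KO library the order was macrophage-like at 197 CPM (175 to 221), endothelial-like at 159 CPM (129 to 193), monocyte-like at 62.8, neutrophil-like at 57.9, hepatocyte-like at 36.3, T and NK-like at 32.7 and B-like at 30.8 CPM. Hepatocyte-like cells, first in the control library, thus ranked 5 of 7 in the GS-KO library, and from monocyte-like cells downward each class overlapped the next in its interval.

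Glul was also lower in GS-KO cells of every other class, though by less. Macrophage-like cells (108 GS-KO and 1432 control cells) differed 1.29-fold (1.14- to 1.45-fold), endothelial-like cells (88 and 114) 1.65-fold (1.28- to 2.14-fold), monocyte-like cells (50 and 106) 1.98-fold (1.27- to 3.22-fold) and neutrophil-like cells (103 and 100) 2.47-fold (1.37- to 4.60-fold). B-like cells (121 and 451) differed 2.17-fold (1.28- to 3.93-fold), and T and NK-like cells (102 and 341) 1.60-fold (1.00- to 2.68-fold). How much hepatocyte RNA was carried between droplets, and its part in these differences, was not tested. RNA of 26 abundant hepatocyte genes, counted in the cells of these classes, moved in the same direction. It summed to 2730 CPM in GS-KO and 3193 CPM in control macrophage-like cells, 1069 and 4047 CPM in endothelial-like, 1266 and 2331 CPM in monocyte-like, 3158 and 5989 CPM in neutrophil-like, 177 and 1610 CPM in B-like and 422 and 1119 CPM in T and NK-like cells. Per 1000 UMIs of these 26 genes, Glul had 0.364 UMIs in GS-KO and 32.8 in control hepatocyte-like cells. The other classes lay between 18.3 (neutrophil-like) and 174 (B-like) in the GS-KO library, all above its hepatocyte-like cells, and between 23.9 (neutrophil-like) and 79.3 (macrophage-like) in the control library, of which neutrophil-like cells lay below its hepatocyte-like cells. The classes also differ in make-up: macrophage-like cells came mostly from clusters 8, 2, 14 and 4 in the GS-KO library and from clusters 4, 14, 8 and 2 in the control library, and B-like cells from cluster 0 in the GS-KO library and cluster 11 in the control library. Within macrophage-like clusters the direction was not uniform: Glul was at 325 CPM in GS-KO cells and 253 CPM in control cells of cluster 14, and at 55.0 and 257 CPM in the shallow cluster 8.

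**Figure D2:**
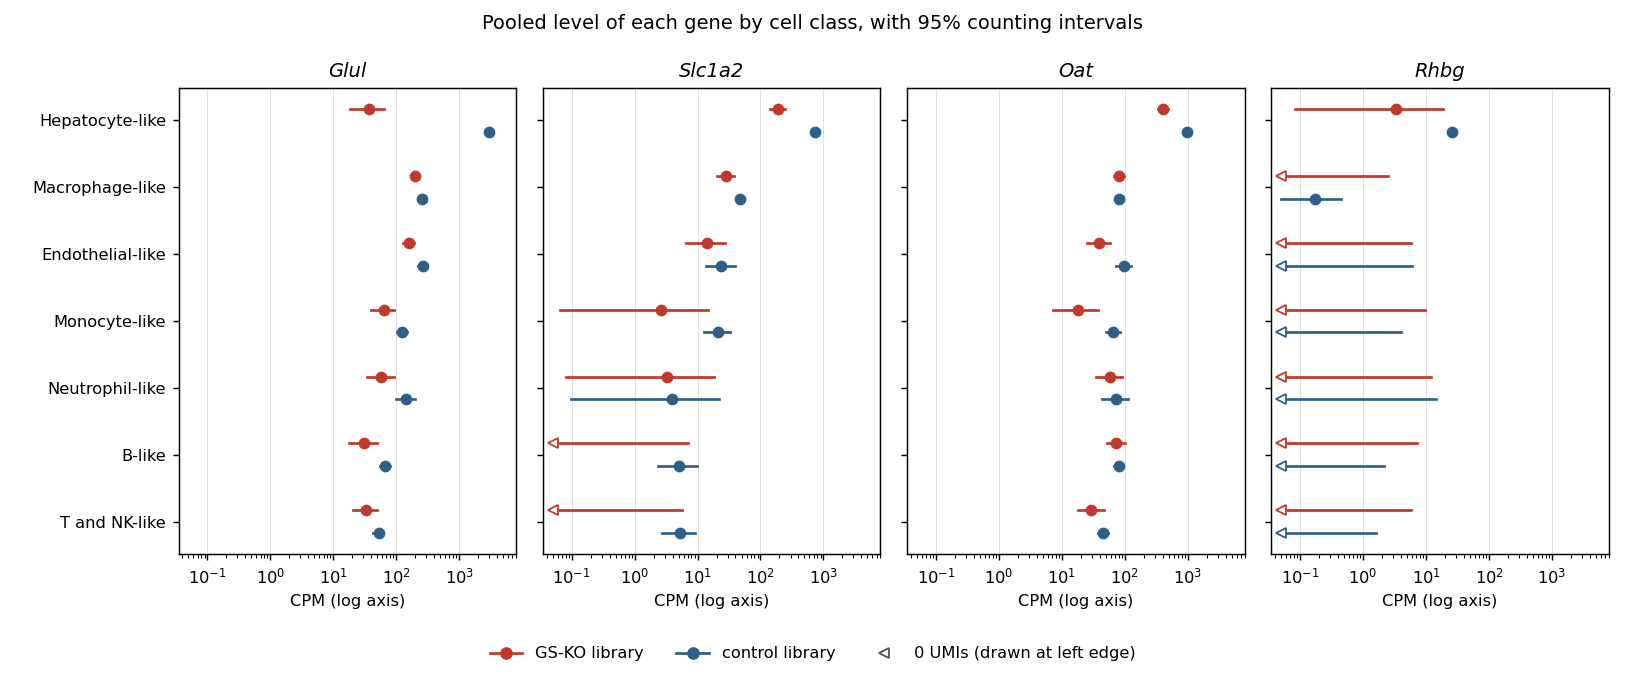
Pooled CPM (log axis) of the 4 genes in 7 cell classes, with the GS-KO library drawn above the control library, 95% counting intervals as lines, and open triangles at the left edge for 0 UMIs. Glul is at 36.3 CPM in GS-KO and 3027 CPM in control hepatocyte-like cells, and no other class shows a gap of that size; Rhbg has 0 UMIs in nearly every class other than hepatocyte-like.

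Among the 7 named classes the 3 partners were highest in hepatocyte-like cells in both libraries, for Rhbg in the GS-KO library on 1 UMI. The unnamed cluster 12 lay above GS-KO hepatocyte-like cells for Oat and Rhbg. In the control library it lay above them for Oat, at 1095 CPM (1026 to 1167) against 986 CPM (974 to 999). Slc1a2 was at 27.9 CPM (20.02 to 37.8) in GS-KO and 47.1 CPM (44.3 to 49.96) in control macrophage-like cells, the next class in each library, and at most 14.2 and 24.0 CPM in the rest. Within macrophage-like cells it was at 78.6 and 69.7 CPM in cluster 4, led by the Kupffer cell marker Clec4f. In cluster 2, led by Gpnmb, it was at 4.21 and 20.1 CPM. Abundant hepatocyte RNA was at 4333 and 3313 CPM in cluster 4 and 1133 and 1497 CPM in cluster 2. The order was not the same in every cluster. Cluster 14 had Slc1a2 at 23.0 and 41.8 CPM with hepatocyte RNA at 4250 and 4250 CPM. Control cells of cluster 18 had 62.2 CPM with hepatocyte RNA at 1877 CPM. Oat was found in every class, from 18.3 CPM in monocyte-like to 80.3 CPM in macrophage-like cells of the GS-KO library and from 45.4 CPM in T and NK-like to 96.0 CPM in endothelial-like cells of the control library. Between the libraries Oat had a ratio of 1.01 (0.830 to 1.21) in macrophage-like, 0.920 (0.625 to 1.33) in B-like, 0.789 (0.391 to 1.59) in neutrophil-like and 0.652 (0.377 to 1.07) in T and NK-like cells. It was lower in GS-KO endothelial-like cells, at 39.4 CPM against 96.0 CPM, a ratio of 0.410 (0.246 to 0.664), and in GS-KO monocyte-like cells, at 18.3 CPM on 7 UMIs against 66.1 CPM, a ratio of 0.277 (0.107 to 0.607). Rhbg had 0 UMIs in the other classes of both libraries except 4 UMIs, 0.172 CPM (0.0468 to 0.440), in control macrophage-like cells. The interval of the count of 0 in GS-KO macrophage-like cells reaches up to 2.51 CPM.

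Within control hepatocyte-like cells Slc1a2 and Oat were seen more often in the cells that also held Glul. Each cell was thinned to 2000 UMIs 100 times and the counts were averaged, which left 16 GS-KO and 421 control cells and left out 3 and 32 shallower ones. Slc1a2 was found in 68.0% of the 341 control cells with Glul and in 16.2% of the 80 without, a difference of 51.8 percentage points (40.9 to 59.8). Oat was found in 68.0% and 27.5%, a difference of 40.5 points (28.7 to 50.3). Rhbg was found in 5.57% and 3.75%, a difference of 1.82 points (-5.17 to 5.68), which was not detectable at this depth. Single thinnings ranged from 39.1 to 63.9 points for Slc1a2 and from 27.9 to 48.7 points for Oat. Part of the gap lies between clusters, since most control cells of cluster 9 lack Glul: within cluster 13 it was 39.6 points (24.2 to 51.7) for Slc1a2 and 37.6 points (22.2 to 50.1) for Oat. In cluster 12, with 90 control cells of 2000 UMIs or more, it was 42.0 points (9.05 to 64.7) for Oat and 12.3 points (-20.6 to 36.2) for Slc1a2.

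The partners also followed the amount of Glul. In control hepatocyte-like cells with 0, 1 to 3, 4 to 9, and 10 or more Glul UMIs per 2000 (79, 106, 124 and 112 cells), Slc1a2 was at 126, 393, 834 and 1417 CPM. Oat was at 296, 416, 1180 and 2352 CPM in the same groups. Rhbg was at 18.9, 18.9, 32.2 and 49.2 CPM, on 3, 4, 8 and 11 UMIs, with overlapping intervals. Slc1a2 thus stepped up at each group, and Oat mainly from 4 Glul UMIs upward. The genes of a list of other pericentral genes summed to 10785, 16358, 20345 and 24979 CPM, and the periportal genes to 4227, 763, 276 and 273 CPM. Within cluster 13 the periportal sums were 658, 392.3, 255 and 197 CPM, so most of the first step lies between clusters 9 and 13. The mean depth of the cells before thinning was 40206, 60970, 67032 and 52222 UMIs.

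**Figure D3:**
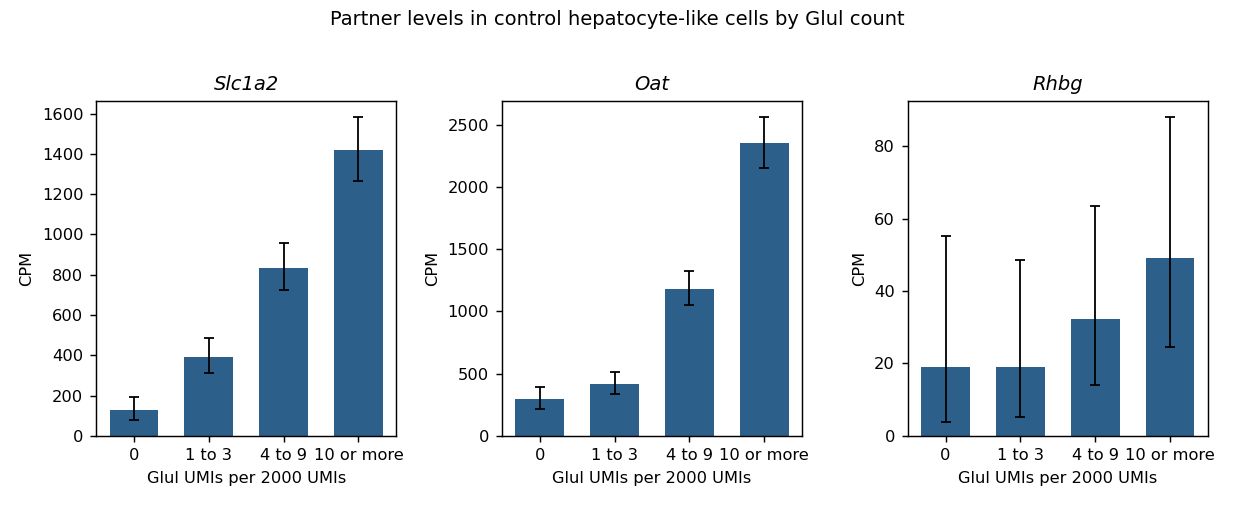
CPM of Slc1a2, Oat and Rhbg (bars, with 95% counting intervals) in control hepatocyte-like cells grouped by their Glul count after thinning to 2000 UMIs. Slc1a2 goes from 126 CPM with 0 Glul UMIs to 1417 CPM with 10 or more and Oat from 296 to 2352 CPM, while the intervals of Rhbg overlap.

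The GS-KO cells gave another combination, on few cells. With 2000 UMIs each, 14 of the 16 GS-KO cells had 0 Glul UMIs on average, and these 14 held Slc1a2 at 469 CPM (250 to 802) and Oat at 685 CPM (413 to 1070), against 126 CPM (76.9 to 195) and 296 CPM (218 to 394) in the 79 control cells without Glul. In cluster 13 alone the values were 653 CPM (348 to 1117) of Slc1a2 and 905 CPM (536 to 1430) of Oat in 10 GS-KO cells, against 205 CPM (123 to 320) and 269 CPM (174 to 398) in 46 control cells. In cluster 12, 14 GS-KO and 9 control cells had 0 Glul UMIs; Oat was at 1301 CPM (916 to 1793) and 219 CPM (59.8 to 561), while Slc1a2 was at 211 CPM (77.4 to 459) and 219 CPM (59.8 to 561). Cells without Glul UMIs thus held more Oat in the GS-KO library in each of these 3 sets of cells. Slc1a2 was higher there in the pooled class and cluster 13 but not in cluster 12. The groups were picked by Glul itself, and they took in 14 of 16 GS-KO cells but 79 of 421 control cells of the class. Since Slc1a2 and Oat ran with Glul in control cells, picking control cells without Glul picks cells low in both. The pooled class contains cluster 13, so the 3 sets are not separate. The GS-KO values rest on 6 to 37 UMIs each, and the intervals leave out the spread between cells. Of the 16 GS-KO cells, 6 showed none of the 4 genes, 4 showed 1, 4 showed 2, 2 showed 3 and 0 showed all 4; of the 421 control cells, 48, 78, 112, 170 and 12 did, as averages over draws rounded to whole cells, which need not add up to the total.

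Over those 421 control cells, the genes whose thinned log2 counts ran most like Glul were Slc1a2 (Pearson r 0.56) and Oat (0.55), ahead of Cyp1a2 (0.53), Cyp2a5 (0.49), Cyp2e1 (0.44), Gulo (0.41), Slco1b2 (0.40), Gstm1 (0.40), Cyp2c67 (0.38) and Gstm3 (0.37), among 2236 genes. Cyp1a2, Cyp2a5 and Cyp2e1 are drug-metabolising cytochromes P450, and Gulo makes a step of vitamin C synthesis. The genes that ran most against it were Hamp (-0.50), the hepcidin gene, Serpina1c (-0.45), Mup3 (-0.44), Ass1 (-0.42), an enzyme of the urea cycle, and Uox (-0.41). Hamp, Serpina1c and Mup3 are also leading genes of cluster 9, where 43 of 68 control cells had 0 Glul UMIs before thinning. For Slc1a2 the order was Glul (0.56), Oat (0.46), Cyp1a2 (0.44), Slco1b2 (0.42) and Cyp2e1 (0.40), and for Oat it was Glul (0.55), Slc1a2 (0.46), Cyp2c67 (0.44), Cyp2e1 (0.43) and Gulo (0.39). So Glul, Slc1a2 and Oat were each other's closest genes over the pooled control cells of both hepatocyte-like clusters. The part of the split between these clusters in the correlations was not tested. Rhbg, at a mean of 0.0646 UMIs per thinned cell, reached at most 0.17 with Gpx2, 0.15 with Spp2, 0.15 with Oat, 0.13 with Gulo and 0.12 with Arpp19, too weak in counts this sparse to read. These correlations are across cells of 1 mouse that share a library and its free RNA, averaged over 20 thinnings; log2 depth before thinning had r 0.14 with Glul, 0.10 with Slc1a2 and -0.07 with Oat.

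The 3 promoter sequences held in the RefSeq table (GRCm38.p6) are shown for the genes that ran together, as the 250 bases before each RefSeq start, 5′ to 3′ on the gene's strand. Capitals mark a match to CTTTGAT or its reverse complement ATCAAAG, a form of the site bound by TCF and LEF factors, the DNA-binding partners of β-catenin. The windows are chr1:153899679-153899928 (plus strand) for Glul, chr2:102706188-102706437 (plus strand) for Slc1a2 and chr7:132576399-132576648 (minus strand) for Oat. Of the 31 runs of 20 bases in the 50 bases after each start, 16 for Glul, 27 for Slc1a2 and 31 for Oat were found in GENCODE transcripts of the gene as written, and 0 as reverse complements.
Glul: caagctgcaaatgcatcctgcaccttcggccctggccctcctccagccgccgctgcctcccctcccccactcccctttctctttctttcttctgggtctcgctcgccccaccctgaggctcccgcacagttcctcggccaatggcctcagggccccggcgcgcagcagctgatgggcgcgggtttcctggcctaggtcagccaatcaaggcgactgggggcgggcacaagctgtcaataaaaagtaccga
Slc1a2: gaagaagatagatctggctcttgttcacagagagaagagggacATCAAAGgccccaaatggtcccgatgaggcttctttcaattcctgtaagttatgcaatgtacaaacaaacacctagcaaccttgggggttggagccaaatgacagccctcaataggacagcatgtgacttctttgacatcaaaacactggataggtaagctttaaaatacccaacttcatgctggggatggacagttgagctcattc
Oat: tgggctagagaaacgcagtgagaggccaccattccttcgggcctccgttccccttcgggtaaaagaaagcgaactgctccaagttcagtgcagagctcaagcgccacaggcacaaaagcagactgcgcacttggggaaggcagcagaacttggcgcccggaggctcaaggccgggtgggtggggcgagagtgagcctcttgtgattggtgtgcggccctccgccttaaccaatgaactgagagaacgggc
Only the Slc1a2 window held the motif, once, as ATCAAAG, 200 bases before the start, and that start lies inside the longer Slc1a2 gene of GENCODE. The motif was present in 1053 of 32851 promoter windows of this length (3.21%). A match is a description of letters and says nothing of binding, and the absence of one concerns these windows alone. Rhbg is not shown.

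Reads of overlapping genes could enter these counts, since the strand setting of the counting is not given. Teddm2, opposite to Glul, had 0 UMIs in GS-KO and 79 UMIs in control hepatocyte-like cells, Gm13872, opposite to Slc1a2, had 0 in both, and Fgfr2, on the strand of Oat, had 0 and 10. These 3 are far below the counts of the genes they overlap in control cells. Mir8114, on the strand of Glul, and Gm38392, on the strand of Rhbg, also overlap and had no row of their own here, and what reads shared with Gm38392 add to the sparse Rhbg counts was not tested.

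Other genes of glutamine and glutamate metabolism had no common direction. Of the 16 genes measured on the synthesis and breakdown list, 1 was at least 2-fold lower and 5 at least 2-fold higher in GS-KO hepatocyte-like cells, against 9.33% lower and 11.2% higher over all genes; the median log2 ratio was -0.04, or 0.09 with genes at 0 set at their bound, beside -0.14 or 0 over all genes. Glud1, glutamate dehydrogenase, was at 832 CPM in GS-KO cells and 614 CPM in control cells, and Got2, the mitochondrial aspartate aminotransferase, at 244 and 216 CPM. Aldh4a1 and Prodh, which break down proline to glutamate, were at 139 and 166 CPM and at 102 and 124 CPM. The genes farthest from a ratio of 1 were Got1, the cytosolic aspartate aminotransferase, 16.2-fold higher (11.3- to 22.8-fold) on 41 GS-KO UMIs, and Gls2, liver glutaminase, 10.3-fold higher (4.77- to 20.1-fold) on 10. In cluster 12, 1 of 8 was lower and 0 higher, against 15.2% and 5.27% of all genes, with Glud1 at 710 and 604 CPM. Among genes with 1000 or more UMIs in hepatocyte-like cells, 0 of 8 were lower and 1 higher, against 7.56% and 3.31% of such genes.

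Among transporters of glutamine and glutamate, 1 of 15 was lower and 0 higher, against 9.33% and 11.2% of all genes; the median of their log2 ratios was -0.01, or 0 with the gene at 0 set at its bound. Slc7a11, the cystine and glutamate exchanger, was at 310 CPM in GS-KO cells and 312 CPM in control cells, Slc25a13, a mitochondrial aspartate and glutamate carrier, at 158 and 117 CPM, Slc38a4 at 149 and 93.95 CPM, and Slc3a2, the partner chain of Slc7a11, at 145 and 90.5 CPM. The lower gene was Slc1a4, a neutral amino acid transporter, at 3.30 CPM on 1 UMI and 42.0 CPM, a ratio of 0.0785 (0.00199 to 0.438), and Slc38a7 also had 1 GS-KO UMI, a ratio of 0.501. Without the 2 deepest GS-KO cells 4 of 15 were lower, against 7.01% of all genes, and 1 higher, and in cluster 12, 3 of 8 were lower, against 15.2%, with Slc7a11 at 43.3 and 196 CPM. The transport list therefore has no steady count.

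Genes of ammonia handling and the urea cycle were higher in the GS-KO cells: 8 of 11 were at least 2-fold higher, against 11.2% of all genes, and 0 lower. Their median log2 ratio was 1.93. Ass1, argininosuccinate synthase, was at 1525 CPM in GS-KO cells and 140 CPM in control cells, 10.9-fold higher (9.84- to 11.98-fold), Asl, the next enzyme, 2.70-fold higher (2.17- to 3.32-fold), Otc, ornithine transcarbamylase, 2.23-fold higher (1.74- to 2.81-fold), and Car5a, a mitochondrial carbonic anhydrase, was at 75.9 and 60.8 CPM. Arg1, arginase, was 16.3-fold higher (13.3- to 19.8-fold) and Hal, histidine ammonia lyase, 11.6-fold higher (6.11- to 20.4-fold). The count was 8 of 11 also without the 2 deepest GS-KO cells, where 13.3% of genes were higher, 5 of 9 in cluster 13, where 11.2% were, and 4 of 6 in cluster 12, where 5.27% were; in cluster 12 Ass1 was at 547 CPM in GS-KO cells and 127 CPM in control cells.

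Of 29 other pericentral and β-catenin target genes, 7 were at least 2-fold lower and 0 higher in GS-KO hepatocyte-like cells, against 9.33% and 11.2% of all genes. The median of their log2 ratios was -0.67. Cyp1a2 was at 2367 CPM in GS-KO cells and 6472 CPM in control cells, 2.73-fold lower, while Gstm3, a glutathione transferase, was at 2221 and 2815 CPM, Cyp2e1 at 1627 and 2591 CPM and Rgn, regucalcin, at 1198 and 2008 CPM. Lect2, a secreted β-catenin target, was at 198 and 730 CPM, 3.68-fold lower, and Axin2, a feedback inhibitor of Wnt signalling, at 6.60 CPM on 2 UMIs and 37.5 CPM. Without the 2 deepest GS-KO cells 5 of 29 were lower and 1 higher, against 7.01% and 13.3% of all genes, with a median of -0.30 (-0.14 with genes at 0 set at their bound). In cluster 12, 6 of 22 were lower, against 15.2%, with a median of -0.23. In cluster 13, 7 of 29 were lower and 1 higher, but without the 2 deepest cells 1 of 29 was lower and 2 higher, against 5.27% and 12.7% of all genes. The lower count of this list in cluster 13 thus also rests on those cells. The median of these genes thus stayed far nearer to 0 than the log2 ratio of Glul, -6.38 in the pooled class and -3.48 in cluster 12.

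Of 20 periportal genes, 14 were at least 2-fold higher and 1 lower (median of 2.33 on the log2 scale), against 11.2% and 9.33% of all genes, and 14 of 20 were higher and 0 lower without the 2 deepest GS-KO cells, against 13.3% higher. Pck1, a gluconeogenic enzyme, was 23.1-fold higher (18.9- to 28.0-fold), and Apoa4, an apolipoprotein, 15.8-fold higher (13.6- to 18.3-fold). Fbp1, also of gluconeogenesis, was 4.94-fold higher (4.06- to 5.97-fold) and Tat, tyrosine aminotransferase, 3.53-fold higher (2.69- to 4.55-fold). Ass1, Arg1, Hal, Cps1, Sds and Sdsl are on both this list and that of ammonia handling and the urea cycle. Gls2 is on both this list and that of synthesis and breakdown. The counts of these lists are thus not separate. In cluster 13 alone 11 of 16 were higher and 0 lower, where 11.2% of genes were higher, and without the 2 deepest cells 9 of 16 were, against 12.7%. The 26 abundant hepatocyte genes gave 1 lower and 1 higher, with a median of 0.09; Apoa2, Apoc1, Alb and Fabp1, which had the most UMIs, had ratios of 1.04, 0.98996, 1.66 and 0.789, and Mup20 and Mup3 of 0.393 and 2.17. A different mix of hepatocytes of the 2 zones, or of tumour and other hepatocytes, and a change within like cells cannot be told apart with these libraries.

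**Figure D4:**
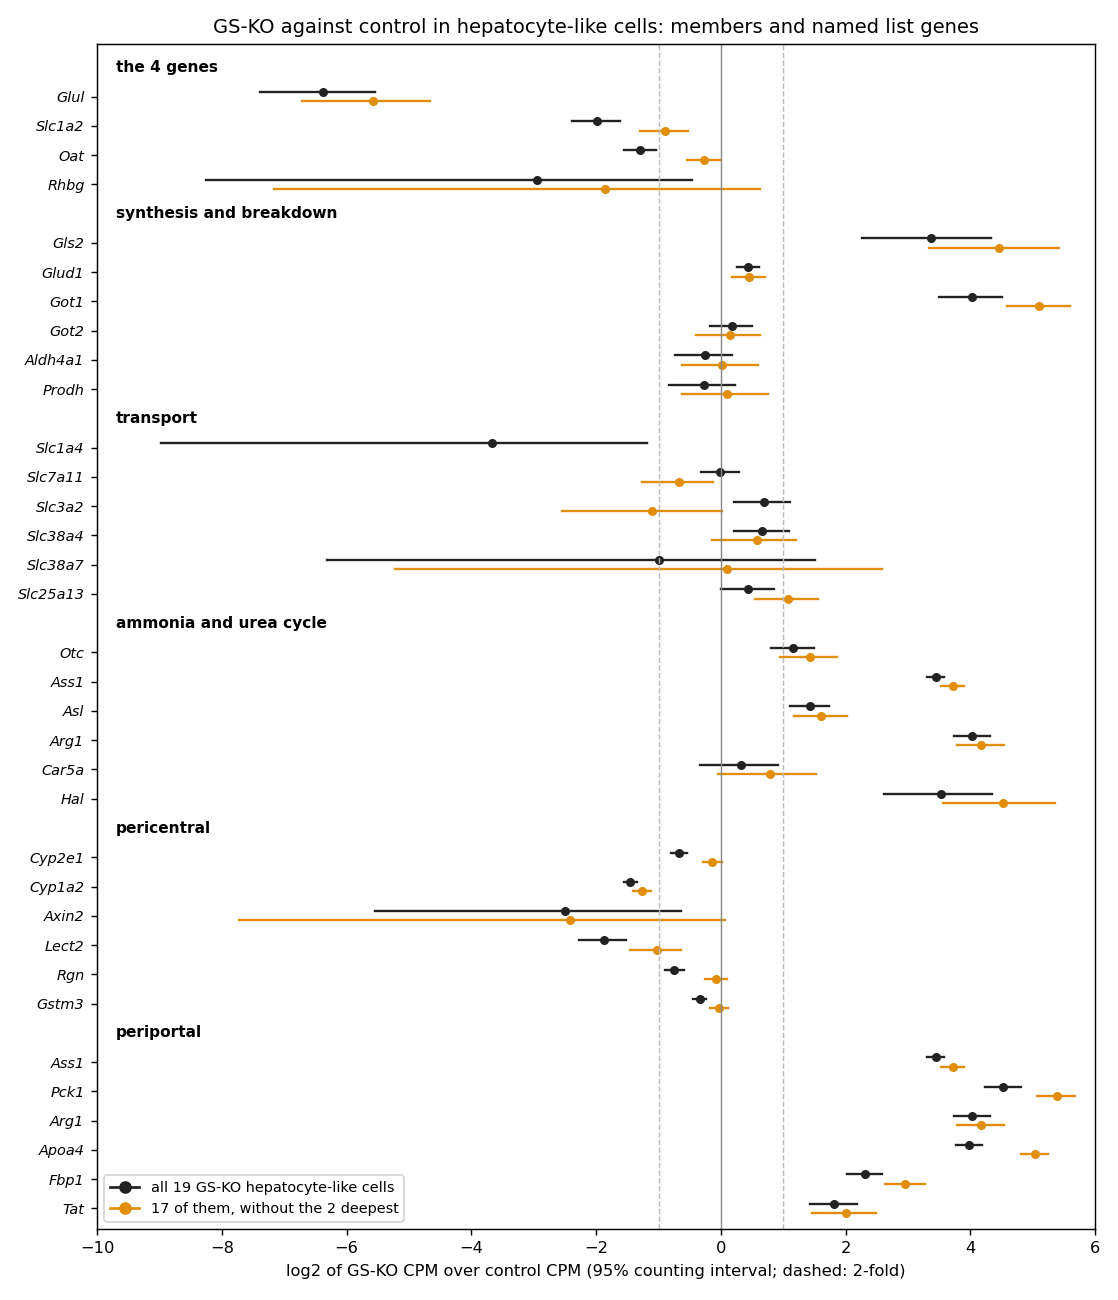
Log2 of GS-KO CPM over control CPM in hepatocyte-like cells for the 4 genes and the named genes of 5 lists, with 95% counting intervals, over all 19 GS-KO cells (black) and over 17 without the 2 deepest (orange); a gene with 0 GS-KO UMIs has no point. Glul stays at -6.38 and -5.58, Slc1a2 and Oat come nearer to 0 without the 2 cells, at -0.90 and -0.27, and Ass1, Arg1, Pck1 and Apoa4 lie to the right in both.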

How the data were processed

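Single-cell RNA was counted in 2 libraries, 1 per mouse. Per the submitters' processing notes the authors used Cell Ranger with mm10; the deposited matrices hold raw UMI counts per gene and barcode, with 3.1.0 as software version per the file headers. Per the labels the library kit was 3PrimeV2, called single-nucleus in 1 place; which applies is not settled here. A minimum of 7500 cells with 20000 reads each is stated in the labels; 1366 GS-KO and 5074 control barcodes were deposited, none under 500 UMIs. Over the mitochondrial limit of 20% were 694 GS-KO and 1799 control barcodes.

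Called doublets (Scrublet per library, 5% expected) were removed, and both libraries were clustered together without batch correction, since batch and group coincide: 10000 UMIs per cell, log, 2000 variable genes among those in 5 or more cells, without the 4 genes, 30 principal components, 15 neighbours, Leiden resolution 1, seed 1 (Python 3.11.15, scanpy 1.11.5, anndata 0.12.19, igraph 0.11.9, scikit-learn 1.9.0, numpy 2.4.6, scipy 1.17.1, pandas 2.3.3, statsmodels 0.14.6, matplotlib 3.10.9). The 19 clusters were named from markers of 18 classes; a marker counted at 2 times the median of the other clusters with 10 CPM added and a UMI in 20% of cells, and a name needed 3 markers, more than any other class had, and no other class with more among the 10 leading genes. A cluster whose cells' median depth was below the third part of their own library's, with none of its markers leading, stayed unnamed. Merging Kupffer with macrophage and T with NK markers, and taking the median over clusters, were set after clusters were seen.

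UMIs were pooled per class and library as CPM with exact Poisson 95% intervals, ratios with conditional binomial intervals, shares with Clopper-Pearson intervals and differences of shares with Newcombe intervals. A gene at 0 was bounded with 3 counts per library. Shares of cells were thinned to 1000 UMIs and co-detection to 2000 UMIs, over 100 draws. A call is a ratio of 2-fold or more among genes with 20 or more UMIs. With 1 library per group no test was run. The ratio interval was checked on simulated counts. Named genes are the 4, the 10 most and 5 least like Glul, the 5 most like each other member, and from each list the 4 with most UMIs and the 2 with the ratio farthest from 1 among those with 50 or more UMIs. Genes, lists and members were chosen with earlier results of these data known. Gene positions are from GENCODE M21 on GRCm38. The alternatives changed the clustering, mitochondrial limit, doublets, pooling, thinning and cells used.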

Additional observations from a re-analysis of the deposited data

How the results depend on the processing

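No paired analysis was possible because each group is 1 library. In hepatocyte-like cells, the log2 of GS-KO CPM over control CPM kept its sign for Glul in every alternative run: it was -6.38, and moved to -4.60 at Leiden resolutions 0.5 and 2 and with cluster 12 added, -5.28 as a mean over cells, -5.25 with cells thinned to 1000 UMIs, -4.93 in cluster 13 without the 2 deepest GS-KO cells and -3.48 in cluster 12 only. For Slc1a2 it was -1.99, and moved to -0.72 with doublets kept, -0.52 as a mean over cells, -0.52 with thinning, -2.57 without the GS-KO cell with most UMIs of it, -0.90 without the 2 deepest GS-KO cells, -0.25 in cluster 13 without them and -1.08 in cluster 12 only. For Oat it was -1.29, and moved to -0.57 at resolutions 0.5 and 2 and with cluster 12 added, -0.52 as a mean over cells, -0.41 with thinning and -0.27 without the 2 deepest cells; it turned to 0.0064 in cluster 12 only and to 0.061 in cluster 13 without the 2 deepest cells. For Rhbg it was -2.94 and turned to 0.23 in cluster 12 only; the 10% mitochondrial limit and leaving out its 1 GS-KO cell gave no value. A mean over cells and thinning weight the 2 deepest cells less by construction, and the cause of the other moves was not tested.

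The co-detection gap with Glul in control cells, 51.8 percentage points for Slc1a2, moved to 35.9 with thinning to 1000 UMIs, 60.0 at 5000 UMIs, 70.7 without thinning and 40.9 when 2 UMIs were asked for; for Oat, 40.5 points, it moved to 51.2, and for Rhbg, 1.82 points, to 28.5, both without thinning. Members at least 2-fold lower went on the synthesis list from 1 to 0 with 1000 or more UMIs asked for, 0 with cluster 12 added and 2 without the 2 deepest cells; on the transport list from 1 to 3 in cluster 12 only, 3 with it added and 4 without the 2 cells; on the pericentral list from 7 to 4 with 1000 UMIs; and on the periportal list from 1 to 0 with 1000 UMIs, with cluster 12 added and without the 2 cells. The settings with cluster 12, with 1000 UMIs and without the 2 deepest cells were added after seeing the data. Depth limits Rhbg and every GS-KO value. The GS-KO values of hepatocyte-like cells rest on 19 cells, and all GS-KO values on 1 mouse.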

Other observations

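Barcodes over the mitochondrial limit, which are in no class, held the 4 genes too. Per 1000000 non-mitochondrial UMIs, Glul was at 83.3 in the 694 GS-KO barcodes and 2892 in the 1799 control barcodes, Slc1a2 at 174 and 752, Oat at 321 and 1096, and Rhbg at 0 and 14.1. These barcodes were chosen by a technical limit, and their cell types were not set.

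Cluster 18, the dividing macrophage-like cluster, held 63 control cells and 0 GS-KO cells, with Glul at 218 CPM and Slc1a2 at 62.2 CPM.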
